A study of Mus musculus with 11 samples.

Results

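The genes described here are 38 imprinted genes of the mouse, a list given by gene name and grouped by their place on the chromosomes. Of the 38 names, 37 matched a row of the count table, which held 27687 genes, and Kcnq1ot1 had no match, so that only its promoter window is counted below. Counts were high enough for the test in 30 of them, and the other 7 are given by their counts alone. Genes less than 3 Mb apart were taken as 1 locus, which gave 15 loci, 6 of them with more than 1 gene. Imprinting itself, the use of the maternal or the paternal copy, was not measured: the counts sum both copies, and every level below is that sum.

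RNA was sequenced from 11 high-grade gliomas grown in the brains of mice, 9 labelled as carrying a prolonged Ezh2 knockdown and 2 labelled as controls. Neural stem cells of the subventricular zone came from 7-day-old compound conditional mice (p53;Ink4a/Arf;Krasv12;LucR) and were infected 3 times with lentiviral CMV-Cre, a virus that expresses the recombinase from a promoter active in many cell types. The resulting glioma initiating cells then received the doxycycline-inducible hairpin construct FH1-tUTG-shEzh2, were sorted for GFP, and were injected into NOD-SCID hosts, which lack mature B and T cells. Knockdown and control tumours thus share the same mutations, the Cre virus, the hairpin construct and the host strain. By the design text some mice drank doxycycline and some did not, whereas the treatment field gives 2 mg/ml doxycycline and 1% sucrose for all tumours alike. It is therefore not settled if the controls received the drug, and effects of the drug and of the hairpin cannot be told apart. The labels do not say whether the tumours came from separate cell preparations, so that every p-value here rests on a spread between tumours that may not be independent replicates.

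An imprinted gene is read mainly from the copy inherited from 1 parent, and imprinted genes lie in clusters that share a control region methylated in the egg or the sperm. Many clusters hold both maternally and paternally read genes, often with a long noncoding RNA that is read from 1 copy. Ezh2 is the catalytic subunit of Polycomb repressive complex 2, which methylates histone H3 at lysine 27, a mark that in mouse placenta and embryonic cells is found on the silent copy of some imprinted genes. Imprinted genes as a group are known for roles in growth of the fetus, placenta and brain, and several are used in neural stem cells and in the hypothalamus.

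Promoter windows are shown for 5 genes on which the results below turn: Asb4, which had the largest fold change among the tested genes of the list; Grb10, which had the largest fall among them; Peg3, whose window is shared with Usp29; and Meg3 and Rian, which varied together between tumours. Each window covers 300 bases, 250 before and 50 after a RefSeq transcription start on GRCm38.p6, and capitals mark CpG dinucleotides, the sites of DNA methylation. The places are chr6:5383136-5383435 on the plus strand for Asb4, chr11:12037371-12037670 on the minus strand for Grb10, chr7:6730370-6730669 on the minus strand for Peg3, chr12:109540746-109541045 on the plus strand for Meg3 and chr12:109603695-109603994 on the plus strand for Rian.
Asb4: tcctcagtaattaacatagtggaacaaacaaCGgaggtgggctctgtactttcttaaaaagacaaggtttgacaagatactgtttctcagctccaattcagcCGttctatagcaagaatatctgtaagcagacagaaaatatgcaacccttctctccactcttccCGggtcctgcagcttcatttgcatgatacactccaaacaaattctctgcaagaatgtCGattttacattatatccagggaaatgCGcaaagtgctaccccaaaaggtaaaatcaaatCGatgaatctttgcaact
Grb10: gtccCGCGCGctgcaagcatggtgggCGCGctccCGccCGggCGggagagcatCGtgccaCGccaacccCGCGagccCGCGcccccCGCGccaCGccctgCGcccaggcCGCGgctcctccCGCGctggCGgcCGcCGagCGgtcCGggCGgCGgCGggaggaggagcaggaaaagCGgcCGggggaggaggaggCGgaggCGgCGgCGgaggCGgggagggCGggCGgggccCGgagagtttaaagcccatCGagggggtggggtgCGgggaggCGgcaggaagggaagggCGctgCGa
Peg3: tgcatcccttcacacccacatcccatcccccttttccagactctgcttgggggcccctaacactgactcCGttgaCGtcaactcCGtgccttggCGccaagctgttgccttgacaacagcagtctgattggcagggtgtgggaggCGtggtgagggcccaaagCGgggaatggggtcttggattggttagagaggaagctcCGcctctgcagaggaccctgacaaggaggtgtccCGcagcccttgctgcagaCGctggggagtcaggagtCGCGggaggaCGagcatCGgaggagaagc
Meg3: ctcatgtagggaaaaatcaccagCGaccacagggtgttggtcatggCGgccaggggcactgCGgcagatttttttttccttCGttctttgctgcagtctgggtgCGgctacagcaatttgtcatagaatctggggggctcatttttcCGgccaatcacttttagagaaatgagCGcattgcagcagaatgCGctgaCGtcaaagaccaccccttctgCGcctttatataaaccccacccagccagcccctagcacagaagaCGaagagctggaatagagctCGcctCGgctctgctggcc
Rian: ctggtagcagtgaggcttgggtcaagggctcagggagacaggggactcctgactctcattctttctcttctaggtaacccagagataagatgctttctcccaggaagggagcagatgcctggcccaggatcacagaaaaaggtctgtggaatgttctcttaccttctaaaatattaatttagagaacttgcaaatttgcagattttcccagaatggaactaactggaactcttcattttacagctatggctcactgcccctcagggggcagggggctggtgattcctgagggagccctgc
The shown windows held 6 CpG for Asb4, 45 CpG for Grb10, 13 CpG each for Peg3 and Meg3, and 0 CpG for Rian. Windows at a second start of Asb4, Grb10 and Meg3 held 8, 9 and 1 CpG, and the start in use was not determined. Across the 46 windows found for 31 of the listed genes, Kcnq1ot1 included, the median was 13.5 CpG, with a range from 0 to 48, against a median of 7 CpG over all 32851 windows. The letters TGCCGC, the core of the motif bound by the imprint-protecting zinc finger protein ZFP57 when methylated, were searched on both strands (GCGGCA on the other), and no other motif was searched. They were present in 10 of the 46 windows, the shown windows of Grb10 and Meg3 among them, and in 11.6% of all windows. The windows at the second starts of Grb10 and Meg3 lacked them. Among the 10 are the windows of Mest at 30737800 to 30738099 and 30737803 to 30738102, which are nearly the same sequence. The letters hold a CpG themselves, and the windows of listed genes held more CpG, so that these shares cannot be set against each other. Windows of Peg3 and Usp29 shared 263 bases, read on opposite strands. DNA methylation was not measured, and a match of letters is a description of the sequence alone.

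Library totals lay between 11209233 and 18638382 counts, and 20197 to 21505 genes had at least 1 count. Ezh2 had 16.2 ± 8.69 CPM (counts scaled by library size and TMM factors; SD, n = 9) in the knockdown tumours and 49.0 ± 5.21 CPM in the controls (SD, n = 2). Its level in the knockdown tumours was 33.1% of that in the controls, with a log2 fold change of -1.59 ± 0.44 (SE; adjusted p = 0.023, edgeR). An exact two-sided permutation test, with 55 ways to choose 2 of the 11 libraries, gave p = 0.018, the smallest it can give. Summed markers of glioma or neural stem cells lay between 2718 and 4060 CPM in the knockdown tumours and at 7473 and 6370 CPM in the controls, with 2 of 8 markers higher and 5 lower. The 5 markers of neutrophils, all lower, summed to between 1.37 and 6.84 CPM in the knockdown tumours and to 184 and 55.6 CPM in the controls, and 4 of 6 microglia and macrophage markers were lower. Oligodendrocyte markers summed to between 141 and 295 CPM in the knockdown tumours and to 40.5 and 19.4 CPM in the controls, with 2 of 4 higher. In such bulk samples fewer cells of a type and less RNA per cell cannot be told apart, and the part of these cell types in the results below was not tested.

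Of the 30 tested imprinted genes, 9 passed the test at an adjusted p under 0.05: 5 rose and 4 fell in the knockdown tumours. That is 30% of them, against 23.3% of all 16241 tested genes. The 5 genes that rose were Asb4, Peg10, Peg3, Dlk1 and Snrpn, where 10.3% of all tested genes rose. The 4 genes that fell were Grb10, Copg2, Mkrn3 and Peg12, where 13.0% of all tested genes fell. In 10 of the 30 all 9 knockdown tumours lay on 1 side of both controls, 6 above and 4 below, or 33.3% against 27.2% of all tested genes. These shares lie near the background of the whole table, so that the number of changed genes is no result about imprinted genes. The median log2 fold change was 0.16 over the 30 genes and 0.07 over all tested genes.

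**Figure D1:**
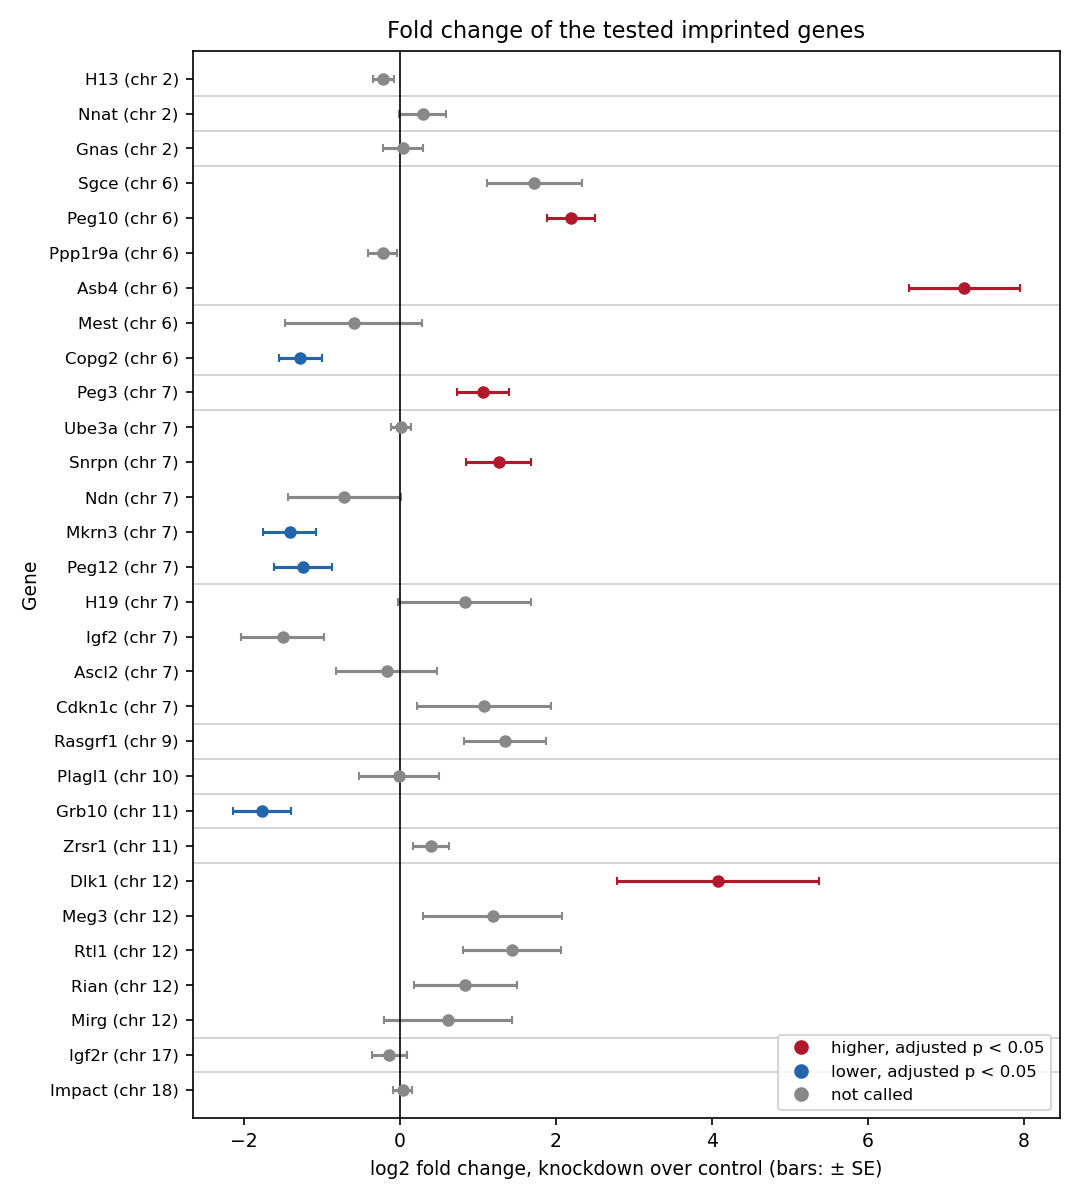
Fitted log2 fold change (knockdown over control, ± SE) of the 30 tested imprinted genes, grouped by locus, with red points for genes that rose and blue points for genes that fell at an adjusted p under 0.05 in edgeR, and grey points for the others. Changed genes were spread over 6 loci, and in the Snrpn to Peg12 locus on chromosome 7 genes changed in both directions.

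Grouped by the copy that is read, 16 tested genes are paternally expressed and 10 maternally expressed, and the other 4 switch with tissue or transcript. Among the paternal ones 4 rose and 2 fell, with a median log2 fold change of 0.34. Among the maternal ones Asb4 rose and Copg2 fell, with a median of 0.72. Both kinds of gene thus held changes in both directions. The median coefficient of variation among the knockdown tumours was 39.7% over the 30 genes and 23.0% over all tested genes. The sets were not matched for level, and scarce genes such as Rtl1, Ascl2 and Mirg (means of 0.489, 0.513 and 0.801 CPM) vary more by counting error. The difference is therefore no result about imprinted genes. In 12 of the 30 tested genes the highest knockdown tumour was more than 4 times the lowest, Mirg with 0 counts in 1 tumour included. The share of all tested genes with such a range was not counted.

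**Figure D2:**
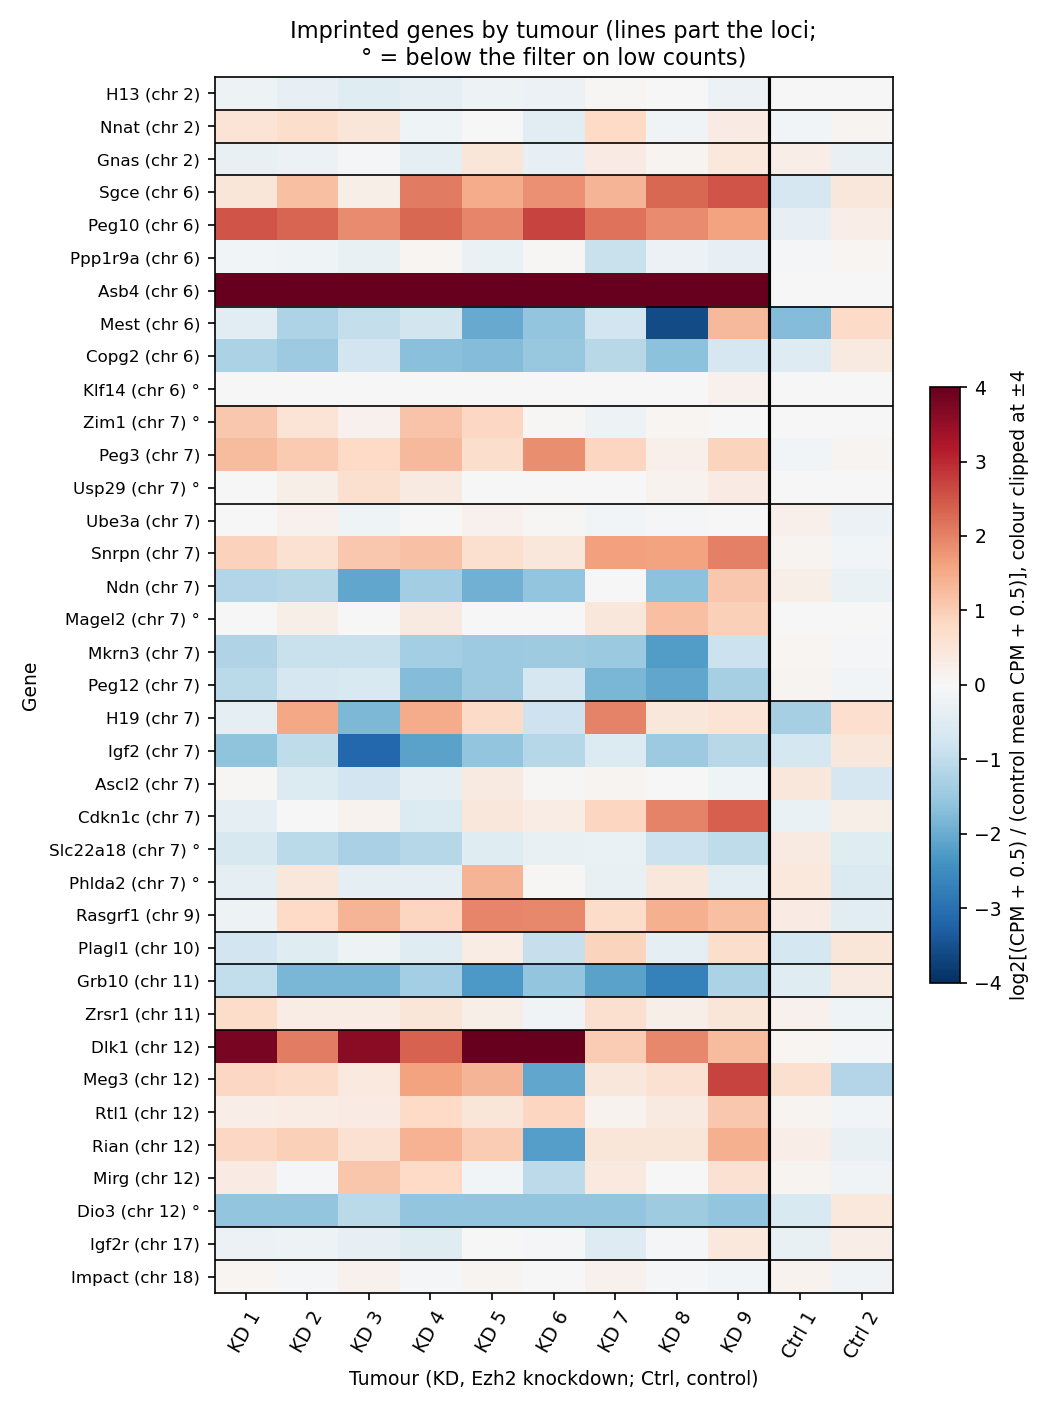
Level of each of the 37 matched genes (rows, in chromosome order) in each tumour (columns, 9 knockdown then 2 control), as log2 of (CPM + 0.5) over the control mean (CPM + 0.5), red above and blue below it, with colour clipped at 4 on either side. Asb4 and Peg10 are red in every knockdown tumour, while Mest, Meg3 and H19 vary within each group.

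The cluster on proximal chromosome 6 (mm9, positions 4624350 to 5383022) holds Sgce, Peg10, Ppp1r9a and Asb4 and had the largest rises of the list. Asb4 and Peg10 rose, Sgce had higher values in 8 of 9 knockdown tumours without passing the test, and Ppp1r9a did not pass it either. Asb4 (ENSMUSG00000042607; positions 5333386 to 5383022) encodes an ankyrin repeat and SOCS box protein of a ubiquitin ligase and is known from the placenta and the hypothalamus. Its lowest, median and highest levels were 16.5, 43.8 and 56.1 CPM in the knockdown tumours, against 0.231 and 0.251 CPM in the controls. The controls held only 3 and 4 counts of it, at the level of the 3-count floor, and no knockdown tumour came near them. The log2 fold change was 7.24 ± 0.72 (SE; adjusted p = 0.00011, edgeR), but its size rests on those 7 control counts. Asb4 and Peg10 passed the test under all 19 alternative settings, with log2 fold changes between 6.98 and 7.33 for Asb4 and between 1.93 and 2.51 for Peg10.

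Peg10 (ENSMUSG00000092035; positions 4697306 to 4710517), derived from a retrotransposon and needed for the placenta in mice, is read from the paternal copy. It had 338, 490.3 and 718 CPM in the lowest, median and highest knockdown tumour, against 87.7 and 131 CPM in the controls. No knockdown tumour came near the controls, and the highest was 2.12 times the lowest. The log2 fold change was 2.19 ± 0.31 (SE; adjusted p = 0.00070, edgeR), or 4.57-fold. Sgce, which encodes the membrane protein epsilon-sarcoglycan and begins beside Peg10, had 9.18, 22.7 and 46.6 CPM (lowest, median, highest) in the knockdown tumours and 4.69 and 10.8 CPM in the controls. Knockdown tumour 3 lay between the controls, and the log2 fold change of 1.72 ± 0.61 (SE) did not pass the test (adjusted p = 0.059, edgeR). It passed without knockdown tumour 1 (adjusted p = 0.045, edgeR) and without knockdown tumour 3 (adjusted p = 0.030, edgeR). Those were its 2 lowest knockdown tumours, at 11.1 and 9.18 CPM. Over all fits with 1 library left out, the log2 fold change of Sgce lay between 1.25 and 2.45. Ppp1r9a, a neuronal actin-binding scaffold, averaged 78.9 ± 13.8 CPM in the knockdown tumours (SD, n = 9) and 91.8 ± 7.46 CPM in the controls (SD, n = 2), with a log2 fold change of -0.22 ± 0.19 (SE). Fitted log2 fold changes within the cluster thus ran from -0.22, in the gene between Peg10 and Asb4, to 7.24.

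**Figure D3:**
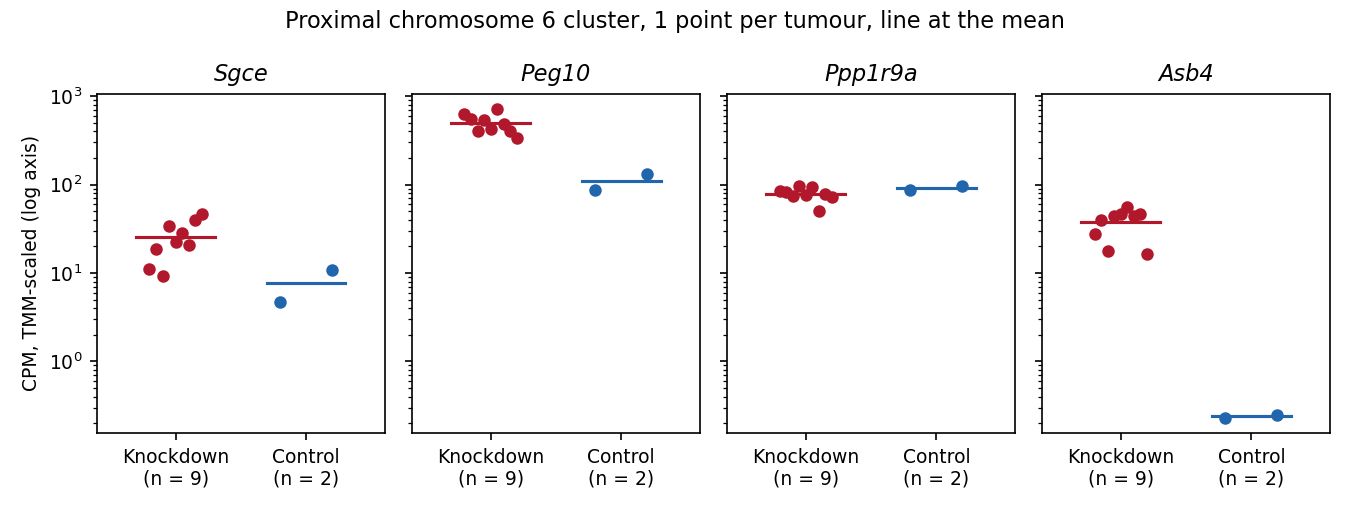
Level of Sgce, Peg10, Ppp1r9a and Asb4 in each tumour, in CPM on a log axis, with the 9 knockdown tumours in red to the left of the 2 controls in blue and a line at each mean. Asb4 is at 16.5 CPM or more in the knockdown tumours and at 0.231 and 0.251 CPM in the controls, while the groups overlap in Sgce and Ppp1r9a.

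Of the 6 tested genes that start within this cluster or 500 kb around it and are not on the list, called its flanking genes, 2 rose and 1 fell. Pon3, a lactonase that lies between Ppp1r9a and Asb4, averaged 30.8 ± 7.19 CPM in the knockdown tumours (SD, n = 9) and 8.03 ± 3.09 CPM in the controls (SD, n = 2), with a log2 fold change of 1.94 (adjusted p = 0.0026, edgeR). Casd1, the neighbour of Sgce that acetylates sialic acids, rose by a log2 fold change of 0.66 (adjusted p = 0.010, edgeR). Col1a2, a collagen chain of fibroblasts, fell by 4.18 on the log2 scale, with 63.9 ± 50.5 CPM in the knockdown tumours (SD, n = 9) and 1154 ± 21.4 CPM in the controls (SD, n = 2; adjusted p = 0.00082, edgeR). Of the 5 meningeal fibroblast markers, 1 of 4 tested was lower, and their sum was between 195 and 2093 CPM in the knockdown tumours and 1695 and 1489 CPM in the controls. Unlisted genes in and around this cluster thus changed in both directions, and whether they are imprinted themselves was not examined.

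Further along chromosome 6 (30673547 to 30908990) lie Mest, Copg2 and Klf14. Copg2 fell, and Mest varied so much within both groups that no difference could be seen. Copg2 (ENSMUSG00000025607), a subunit of the COPI coat of Golgi vesicles, had 25.9, 31.4 and 54.0 CPM in the lowest, median and highest knockdown tumour and 61.4 and 113 CPM in the controls. All knockdown tumours lay below both controls, and the log2 fold change was -1.28 ± 0.28 (SE; adjusted p = 0.0077, edgeR). The call was lost without control 2 (log2 fold change -0.78, adjusted p = 0.18). Mest, a paternally read hydrolase-like protein of mesoderm, had 49.6, 306 and 1444 CPM (lowest, median, highest) in the knockdown tumours and 176 and 1010.0 CPM in the controls. The highest knockdown tumour was 29.1 times the lowest, the controls differed 5.73-fold, and the direction turned without control 2. The 3′ ends of the Mest and Copg2 models overlap, so that reads there cannot be assigned to either if strand was not used in counting. Across the 9 knockdown tumours Mest and Copg2 had a Pearson's r of 0.71 (adjusted p = 0.10, exact permutation, 12 pairs tested) and an r of 0.49 without the 2 tumours farthest from the median of Mest. Klf14, a maternally read transcription factor, had 1 count in all knockdown tumours together and 0 counts in the controls. None of the 13 tested flanking genes passed the test.

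The Peg3 locus on proximal chromosome 7 (6628154 to 6916480) holds the zinc finger genes Peg3 and Zim1 and the ubiquitin protease Usp29. Peg3 (ENSMUSG00000002265), a paternally read regulator known for growth and maternal behaviour in mice, had 40.5, 65.1 and 128 CPM in the lowest, median and highest knockdown tumour, against 32.3 and 38.02 CPM in the controls. All 9 knockdown tumours were above both controls, the lowest by a small margin. The log2 fold change was 1.06 ± 0.34 (SE; adjusted p = 0.040, edgeR), and it was 0.93 to 1.18 over the alternative settings, in 12 of 19 of which it passed the test. It did not pass with either control left out. Usp29 had 10 counts over all knockdown tumours and 0 counts in the controls, too few for a fold. Its counted model (6913871 to 6916480) lies apart from that of Peg3, which ends at 6683132. The counts thus do not cover the Usp29 start whose promoter window is shared with Peg3. They cover at most a part of the gene, whose exons add up to 18.1 kb in GENCODE M21. Zim1, maternally read, had 38 counts in the knockdown tumours and 2 counts in the controls, a ratio of 4.48 (95% exact interval 1.16 to 38.3, which covers counting error only). Of 10 tested flanking genes 1 rose, the zinc finger gene Zfp28 (log2 fold change 0.61, adjusted p = 0.033, edgeR).

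The locus of central chromosome 7 (66484122 to 69609396) corresponds to the human Prader-Willi and Angelman region. Of its 5 tested genes Snrpn rose, Mkrn3 and Peg12 fell, and Ndn and Ube3a did not pass the test. Snrpn (ENSMUSG00000000948), which encodes a splicing factor protein of small nuclear ribonucleoproteins and is paternally read, had 11.4, 17.7 and 34.0 CPM in the lowest, median and highest knockdown tumour, against 8.77 and 7.39 CPM in the controls. Knockdown tumours 7, 8 and 9 were highest, at 26.1, 25.6 and 34.0 CPM, and the other 6 lay between 11.4 and 18.8 CPM. These are also the tumours with the highest summed neuronal markers, 84.5, 96.0 and 84.8 CPM, where the other 6 had 22.6 to 64.0 CPM and the controls 36.3 and 28.4 CPM. Of the 6 neuronal markers 2 were higher in the knockdown tumours, none was at 0 in every library, and their part in the Snrpn result was not tested. Knockdown tumours 7, 8 and 9 were also low in the RNA Xist, at 0.427, 0.108 and 0.531 CPM, where the controls had 74.2 and 131 CPM. Knockdown tumour 1 was low in Xist too, at 1.10 CPM, and had 15.6 CPM of Snrpn. Whether Snrpn differs with Xist was not tested. The log2 fold change of Snrpn was 1.27 ± 0.41 (SE; adjusted p = 0.044, edgeR), the weakest of the calls: it passed in 8 of 19 alternative settings, in which it ranged between 0.79 and 1.39.

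Mkrn3 and Peg12 are paternally read, intronless and next to each other. Mkrn3 (ENSMUSG00000070527), a ring finger protein known as a brake on puberty, had 1.02, 2.26 and 3.45 CPM in the lowest, median and highest knockdown tumour, against 7.08 and 6.20 CPM in the controls. Peg12 (ENSMUSG00000070526), a relative of the Wnt pathway protein Frat, had 3.18, 5.71 and 9.73 CPM in the knockdown tumours, in the same order, against 16.3 and 13.8 CPM in the controls. In both genes all knockdown tumours lay below both controls, by log2 fold changes of -1.42 ± 0.34 (SE; adjusted p = 0.013, edgeR) for Mkrn3 and -1.25 ± 0.37 (SE; adjusted p = 0.031, edgeR) for Peg12. Neither call held with either control left out, at an adjusted p of 0.12 and 0.061 for Mkrn3 and of 0.22 and 0.11 for Peg12 without control 1 and without control 2 (edgeR).

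Ndn, a paternally read protein of postmitotic neurons, had 21.9 and 47.6 CPM in knockdown tumours 7 and 9 and 4.83 to 9.96 CPM in the other 7, against 26.1 and 18.3 CPM in the controls. Its log2 fold change of -0.71 ± 0.73 (SE; adjusted p = 0.50, edgeR) covers both sets of tumours. The same 2 tumours had the highest summed hypothalamic neuron markers, 98.0 and 36.4 CPM, where the other 7 had 4.44 to 11.3 CPM and the controls 6.15 and 15.8 CPM. Most of that sum was Npy, at up to 94.7 CPM in a knockdown tumour, and none of the 3 tested of 7 markers passed the test. Magel2, the neighbour of Ndn, had 25 counts over the knockdown tumours and 0 counts in the controls, at least 1.97-fold higher against a floor of 3 counts over both controls. Of the 25 counts 12 came from knockdown tumour 8 and 7 from knockdown tumour 9, 4 of the 9 had none, and without tumour 8 the bound was 1.19-fold. Ube3a, a ubiquitin ligase that is read from the maternal copy in neurons, averaged 67.0 ± 5.45 CPM in the knockdown tumours (SD, n = 9) and 66.6 ± 13.8 CPM in the controls (SD, n = 2), with a log2 fold change of 0.01 ± 0.13 (SE). No flanking gene could be tested here, as 0 of 29 passed the filter on low counts.

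On distal chromosome 7 (149761434 to 150688446) none of the 4 tested genes of the list passed the test. Of the 25 tested genes in or around the cluster that are not on the list 12 fell, where 13.0% of all tested genes fell. The second set is not free of imprinted genes: Kcnq1, Cd81, Tnfrsf22 and Tnfrsf23 are known to be imprinted in mouse placenta. H19, the maternally read noncoding RNA beside Igf2, had 6.48, 35.4 and 96.6 CPM in the lowest, median and highest knockdown tumour and 9.23 and 38.8 CPM in the controls. The groups overlapped widely, with a log2 fold change of 0.83 ± 0.85 (SE; adjusted p = 0.51, edgeR). Igf2, the paternally read fetal growth factor, had 0.621, 3.18 and 6.35 CPM in the knockdown tumours, in the same order, and 5.69 and 13.3 CPM in the controls. In 8 of 9 knockdown tumours it was below both controls, yet the log2 fold change of -1.51 ± 0.53 (SE) did not pass the test (adjusted p = 0.059, edgeR). Igf2 passed without knockdown tumour 3 (adjusted p = 0.030, edgeR) and without knockdown tumour 7 (adjusted p = 0.031, edgeR), its lowest and its highest. With 1 library left out its log2 fold change lay between -1.99 and -0.77. An antisense gene model overlaps Igf2. Cdkn1c, a maternally read inhibitor of cyclin-dependent kinases, was highest in knockdown tumours 8 and 9, at 10.7 and 14.4 CPM, and lay between 1.44 and 4.64 CPM in the other 7, against 1.85 and 2.82 CPM in the controls (log2 fold change 1.08 ± 0.85, SE; adjusted p = 0.38, edgeR). Ascl2, a transcription factor of the placenta, was at 1.00 CPM or less in every tumour (log2 fold change -0.17 ± 0.65, SE).

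Among the genes of this locus below the filter, Slc22a18, a transporter, had 44 counts in the knockdown tumours and 25 counts in the controls, a ratio of 0.415 (95% exact interval 0.249 to 0.708). Phlda2, which limits placental growth, had 61 counts in the knockdown tumours and 9 counts in the controls, a ratio of 1.598 (0.789 to 3.66). These intervals cover counting error and not the spread between tumours.

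The 25 tested unlisted genes of the locus had a median log2 fold change of -0.81, and none of them rose. The 3 with the smallest p were Lsp1, an actin-binding protein of white blood cells, Tnfrsf22, a decoy receptor for a death ligand, and Gm14492. Lsp1 averaged 62.2 ± 11.98 CPM in the knockdown tumours (SD, n = 9) and 181 ± 15.6 CPM in the controls (SD, n = 2), and fell by 1.54 on the log2 scale (adjusted p = 0.00037, edgeR). Tnfrsf22 averaged 12.8 ± 2.80 CPM in the knockdown tumours (SD, n = 9) and 39.96 ± 19.2 CPM in the controls (SD, n = 2), and fell by 1.64 on the log2 scale (adjusted p = 0.0015, edgeR). With control 1 left out 2 of these unlisted genes fell in the test, and with control 2 left out 7 did. Microglia and macrophage markers summed to between 139 and 269 CPM in the knockdown tumours and to 272 and 579 CPM in the controls, and their part in the lower genes was not tested. Over all 15 loci 156 flanking genes were tested, of which 15 rose and 22 fell, or 23.7%, close to the 23.3% of the whole table. They are all tested genes there that are not on the list, imprinted or not.

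**Figure D4:**
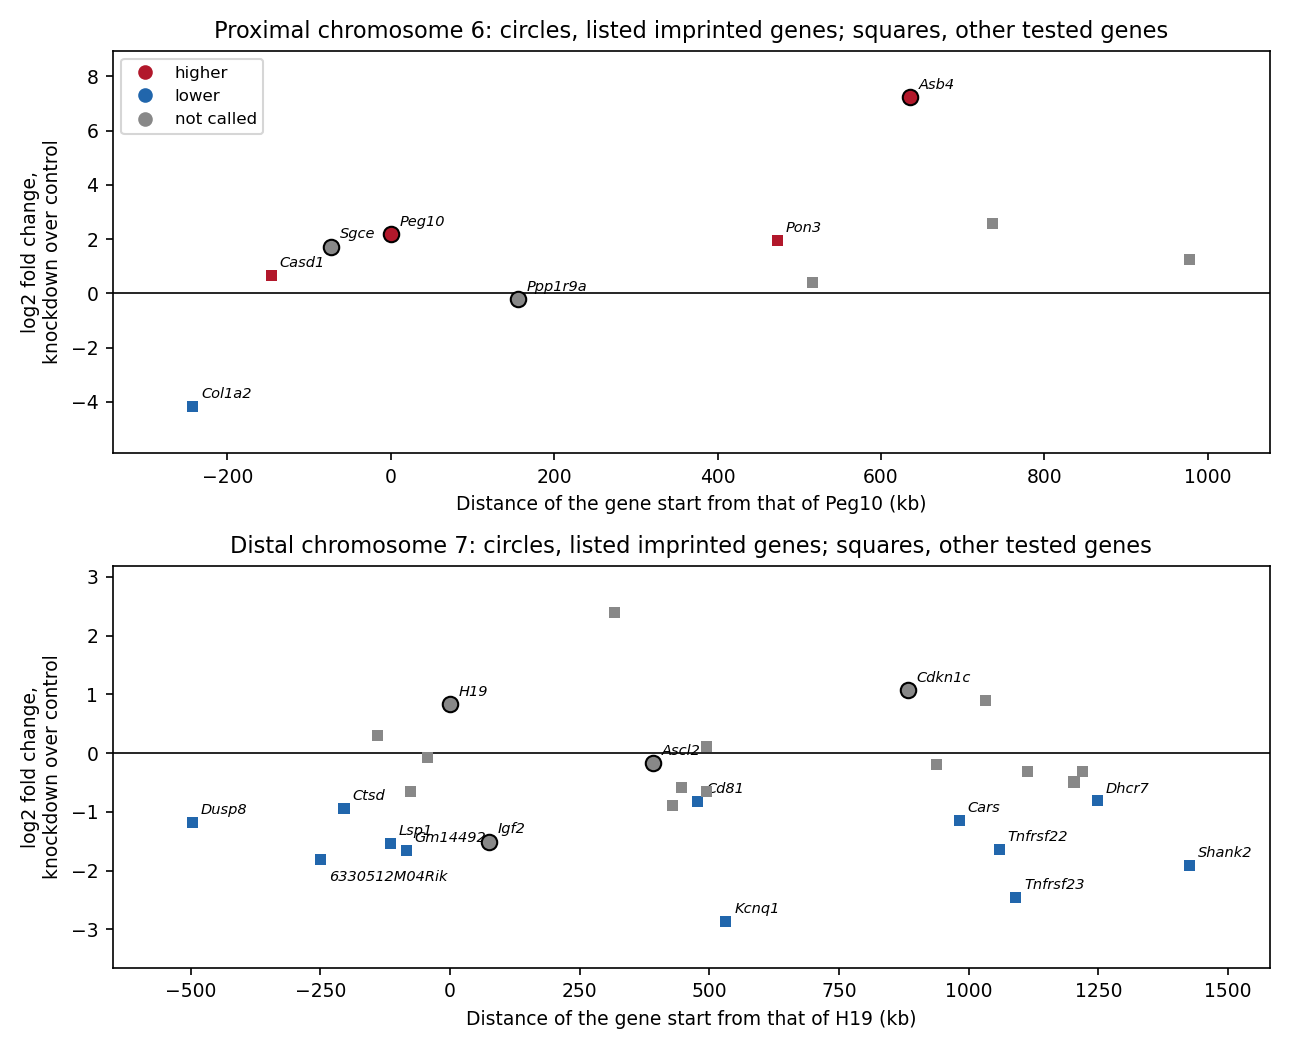
Log2 fold change (knockdown over control) of listed imprinted genes and of tested unlisted genes in or within 500 kb of the cluster, against the distance in kb from the start of Peg10 (chromosome 6) or H19 (chromosome 7), with circles for imprinted genes and squares for the others, red where higher, blue where lower and grey where not called. Around the distal chromosome 7 cluster no tested unlisted gene rose and 12 of 25 fell, where 13.0% of all tested genes fell. The proximal chromosome 6 cluster holds rises and a fall.

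The Dlk1 to Dio3 cluster of distal chromosome 12 (110691033 to 111519307) has paternally read protein-coding genes and maternally read noncoding RNAs. Dlk1 rose, and no noncoding RNA passed the test. Dlk1 (ENSMUSG00000040856), a membrane protein related to Notch ligands that is made by immature cells, had 1.77, 5.35 and 33.3 CPM in the lowest, median and highest knockdown tumour, against 0.692 and 0.564 CPM in the controls. Every knockdown tumour was above both controls, but they spanned 18.8-fold among themselves. The log2 fold change was 4.08 ± 1.30 (SE; adjusted p = 0.040, edgeR), and it did not pass with either control left out. Rtl1, a retrotransposon-derived gene of the placenta, also had no overlap, with 0.244 to 0.929 CPM in the knockdown tumours and 0.231 and 0.125 CPM in the controls. Those levels are close to the 3-count floor of 0.162 to 0.273 CPM, and the log2 fold change of 1.43 ± 0.63 (SE) did not pass the test (adjusted p = 0.12, edgeR).

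Meg3, Rian and Mirg are maternally read noncoding RNAs, of which Rian hosts small nucleolar RNAs and Mirg microRNAs. Gene models of small RNAs overlap those of Rian and Mirg, and no other gene model overlaps Meg3. Meg3 had 3.54, 28.7 and 110.5 CPM in the lowest, median and highest knockdown tumour and 25.9 and 7.08 CPM in the controls, with a log2 fold change of 1.19 ± 0.89 (SE; adjusted p = 0.35, edgeR). Rian had 1.18, 13.2 and 20.0 CPM in the knockdown tumours, in the same order, and 8.69 and 5.70 CPM in the controls (log2 fold change 0.84 ± 0.66, SE; adjusted p = 0.38, edgeR). In both genes the lowest tumour was knockdown tumour 6, at 12.1% of the median of the other 8 knockdown tumours for Meg3 and at 8.55% for Rian. Mirg had 0 counts in that tumour, where 3 counts would be 0.273 CPM, and its median over the other 8 was 0.819 CPM. Dlk1 and Rtl1 were not low in it: they had 17.5 and 0.727 CPM there, each the next to highest of the 9. The paternally read Dio3 had 0 counts there, as in 6 other knockdown tumours. Without this tumour, its lowest, Rian passed the test (log2 fold change 0.99, adjusted p = 0.048, edgeR). Over all fits with 1 library left out, the log2 fold change of Rian lay between 0.56 and 1.17.

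Across the 9 knockdown tumours Meg3 and Rian varied together, with a Pearson's r of 0.94 (p = 7.4e-05, adjusted p = 0.00089, exact permutation, 12 pairs tested) and a Spearman's rho of 0.92 (p = 0.0013, adjusted p = 0.016, exact permutation). Without tumours 6 and 9, the farthest from the median of Meg3, r was 0.91. Dlk1 and Meg3 had an r of -0.37 (adjusted p = 0.47, exact permutation). Dio3, the deiodinase at the far end of the cluster, had 4 counts over the knockdown tumours and 30 counts in the controls, a control over knockdown ratio of 31.8 (95% exact interval 11.2 to 124, counting error only). It was too low for the test over all 11 libraries, and without a filter on low counts it fell by 4.70 on the log2 scale (adjusted p = 0.0027, edgeR). It had no count in 7 of the 9 knockdown tumours, and 0.462 and 1.503 CPM in the controls. Of the 7 tested flanking genes 1 rose, Begain, which encodes a protein of the synapse (log2 fold change 2.29, adjusted p = 0.029, edgeR).

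**Figure D5:**
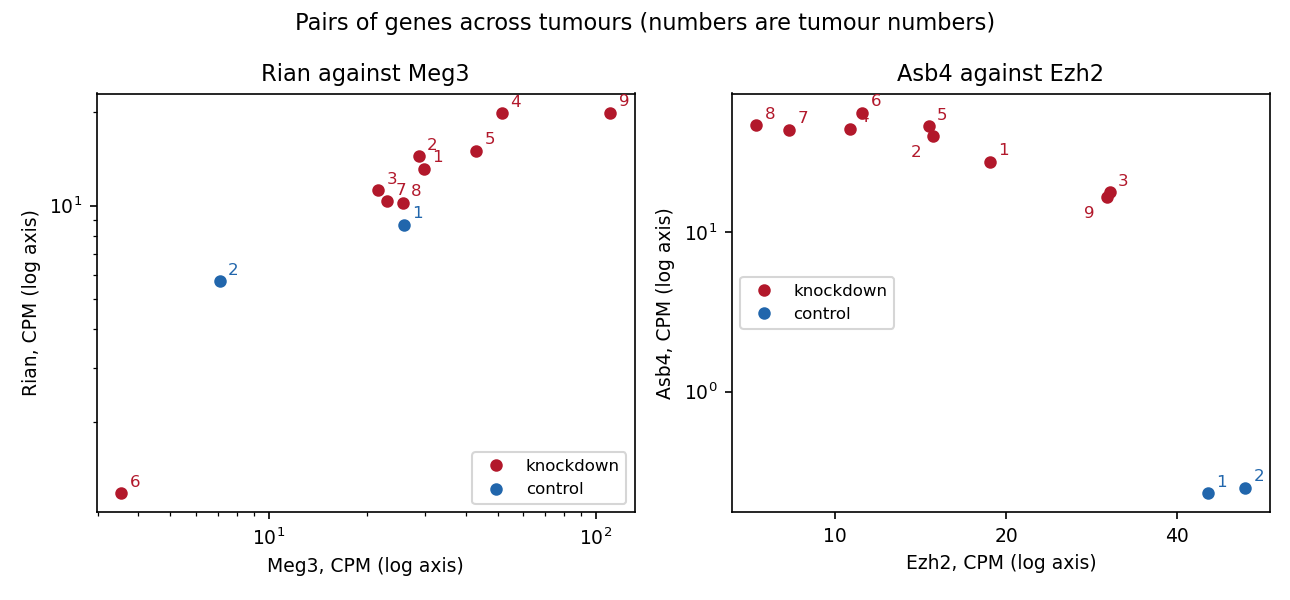
Rian against Meg3 and Asb4 against Ezh2 in each tumour, in CPM on log axes, with knockdown tumours in red, controls in blue and tumour numbers beside the points. Knockdown tumour 6 has the lowest Meg3 and Rian, and the tumours with the most Ezh2 left, 3 and 9, have the least Asb4 of the knockdown tumours.

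Asb4 was lowest in the knockdown tumours with the most Ezh2 left. Tumours 3 and 9, with 30.4 and 30.1 CPM of Ezh2, had 17.8 and 16.5 CPM of Asb4, and the other 7, with 7.27 to 18.7 CPM of Ezh2, had 27.7 to 56.1 CPM. Pearson's r over the 9 tumours was -0.90 (p = 0.0018, adjusted p = 0.011, exact permutation). Spearman's rho was -0.78 (p = 0.017, adjusted p = 0.10, exact permutation). Without tumours 3 and 9 r was -0.62, so that the relation rests on those tumours in part. For Peg10 and Ezh2 r was -0.35 (adjusted p = 0.47, exact permutation) and was 0.44 without tumours 3 and 9. Xist was at 5 CPM or more in 7 libraries, knockdown tumours 2 to 6 and both controls, and at 0.108 to 1.10 CPM in knockdown tumours 1, 7, 8 and 9. Knockdown tumours with and without Xist number 5 and 4, under the 6 needed for a correlation within either. The other 9 pairs tested, among them Peg10 with Sgce (r = -0.27) and H19 with Igf2 (r = 0.63), did not pass after adjustment over the 12 pairs.

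The other 9 loci hold 1 listed gene each. Grb10 (ENSMUSG00000020176; chromosome 11, 11830511 to 11938686), an adaptor that dampens insulin and growth factor receptors, is read from the maternal copy in most tissues and from the paternal copy in neurons. It had 2.96, 5.84 and 10.9 CPM in the lowest, median and highest knockdown tumour, against 15.5 and 28.6 CPM in the controls. All 9 knockdown tumours lay below both controls, with a log2 fold change of -1.77 ± 0.37 (SE; adjusted p = 0.0066, edgeR). Without control 2 it was -1.27 and did not pass the test (adjusted p = 0.13, edgeR). Of its 4 tested flanking genes 1 fell, Ikzf1, a transcription factor of blood cells (log2 fold change -1.33, adjusted p = 0.017, edgeR).

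Rasgrf1, a paternally read activator of Ras in neurons, had 3.76, 10.8 and 18.5 CPM in the lowest, median and highest knockdown tumour and 5.69 and 3.07 CPM in the controls. In 8 of 9 knockdown tumours it was above both controls, and the log2 fold change of 1.34 ± 0.53 (SE) did not pass the test (adjusted p = 0.085, edgeR). It passed without knockdown tumour 1, the lowest of the knockdown tumours (adjusted p = 0.035, edgeR). With 1 library left out the log2 fold change of Rasgrf1 lay between 0.96 and 1.85. Plagl1, a paternally read zinc finger regulator of other imprinted genes in mice, averaged 7.46 ± 3.82 CPM in the knockdown tumours (SD, n = 9) and 7.52 ± 4.43 CPM in the controls (SD, n = 2). Igf2r, the receptor that clears IGF2, averaged 230 ± 49.1 CPM in the knockdown tumours (SD, n = 9) and 253 ± 68.9 CPM in the controls (SD, n = 2), and the model of the antisense RNA Airn overlaps it. H13, Nnat and Gnas on chromosome 2 and Zrsr1 on chromosome 11 had log2 fold changes of -0.21 ± 0.13, 0.29 ± 0.30, 0.04 ± 0.26 and 0.40 ± 0.23 (SE), none past the test. Each of these 4 overlaps another gene model. Impact, a regulator of protein synthesis on chromosome 18, was the steadiest, with 90.2 ± 7.33 CPM in the knockdown tumours (SD, n = 9) and 88.2 ± 12.3 CPM in the controls (SD, n = 2). Around these single genes, unlisted genes that passed the test with the smallest p were Rem1 and Tm9sf4 near H13 (log2 fold changes 2.66 and -0.61), Src, Rprd1b and Manbal near Nnat (-0.94, 0.57 and -0.49), and Ctsz and Zfp831 near Gnas (-1.11 and 2.57). On the other chromosomes they were Stx11 and Phactr2 near Plagl1 (-1.88 and 1.03), Acat2 near Igf2r (1.04), Gm12056 near Zrsr1 (5.55 ± 4.38 CPM in the knockdown tumours and 0.0698 ± 0.0101 CPM in the controls, SD), and Gm5687, Ttc39c and Osbpl1a near Impact (1.49, -0.83 and 0.61). For Impact, Gnas, Plagl1 and Igf2r the sign of the log2 fold change depended on the setting, as it did for Ube3a, Ascl2, Mest and Cdkn1c at other loci.

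Compared per kilobase of exon (GENCODE M21 lengths, GRCm38), the order of levels differed from that of CPM. Mest had 99.5 CPM per kb in the knockdown tumours and 150.4 CPM per kb in the controls. Peg10 had 75.0 CPM per kb in the knockdown tumours and 16.4 CPM per kb in the controls, and Nnat, a membrane proteolipid of neurons, 36.1 and 29.6 CPM per kb in the same order. Asb4 had 9.58 CPM per kb in the knockdown tumours, above Copg2 with 7.01 CPM per kb, and 0.0612 CPM per kb in the controls, where Copg2 had 17.01 CPM per kb. Peg10 and Mest, the highest in the knockdown tumours, did not differ there beyond the spread of Mest.

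A second list held 31 genes known to act on imprints, such as readers, writers and erasers of DNA methylation and Polycomb subunits, of which 24 were tested, 5 were below the filter and 2 were not in the table. Of the tested genes 4 rose and Ezh2 fell, or 20.8%, against 23.3% of all tested genes. Tet1, an enzyme that oxidises methylated cytosine, averaged 13.6 ± 4.04 CPM in the knockdown tumours (SD, n = 9) and 5.40 ± 1.61 CPM in the controls (SD, n = 2), with a log2 fold change of 1.33 ± 0.35 (SE; adjusted p = 0.019, edgeR). Dnmt3l, the cofactor of methylation in germ cells, averaged 3.05 ± 1.63 CPM in the knockdown tumours (SD, n = 9) and 0.635 ± 0.190 CPM in the controls (SD, n = 2), with a log2 fold change of 2.26 ± 0.71 (SE; adjusted p = 0.039, edgeR). Its lowest knockdown tumour, at 0.759 CPM, lay just under control 1. Ezh1, the other catalytic subunit of the Polycomb complex, and the histone deacetylase Hdac1 rose by log2 fold changes of 0.79 ± 0.15 (SE; adjusted p = 0.0040, edgeR) and 0.61 ± 0.12 (SE; adjusted p = 0.0053, edgeR). With either control left out, 1 gene of this list passed the test.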

How the data were processed

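RNA of 11 mouse gliomas was isolated with TRIzol, and TruSeq RNA libraries were read on an Illumina HiSeq2000, per the labels' protocols. The authors deposited 1 table of whole-number counts of reads per Ensembl gene, not normalised, for which the submitters' processing notes name TopHat 1.4.0, HTSeq and build mm9; the use of strand is not given in the sources used here. Symbols and mm9 coordinates are those of the table. Groups come from the sample titles. The test was that of edgeR 4.0.16 in R 4.3.3 (TMM, filterByExpr, quasi-likelihood F-test over all 11 libraries, Benjamini-Hochberg adjustment over 16241 genes, threshold 0.05). The filter kept 99.9% of counts, and an SE is the log2 fold change divided by the square root of F. Alternatives used DESeq2 1.42.0 and limma-voom 3.58.1, other scaling and filters, a replicate block and fewer libraries. Correlations used log2(CPM + 1). The fit was tested on simulated counts. The listed genes and the other lists were chosen with earlier results of these data known. Named genes were all listed genes, called regulators, and the called flanking genes with the smallest p, at most 3 per locus; Kcnq1, Cd81 and Tnfrsf23 were named after their values were seen. No library was a copy of another, as counts of pairs within a group differed by a chi-square of at least 11.2 for each degree of freedom. One flanking gene that this rule names is not reported here.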

Additional observations from a re-analysis of the deposited data

Results flagged for a closer look

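Among the 9 knockdown tumours, 7 of 37 listed genes had a tumour set apart from the others by more than the 95% critical value of Dixon's test on the log2(CPM + 1) scale. Chance gives about 1 in 20 groups for normally distributed values. Genes mostly at 0 counts are not so distributed, and Meg3 and Rian varied together, so the 7 cannot be set against that rate. Meg3 at 3.54 CPM and Rian at 1.18 CPM were low in knockdown tumour 6, with 39 and 13 counts. Ppp1r9a was low in knockdown tumour 7 at 49.8 CPM, and Mkrn3 was low in knockdown tumour 8 at 1.02 CPM, with 19 counts. The other 3 rest on few counts: Phlda2 was high in knockdown tumour 5 at 1.67 CPM with 26 counts, Dio3 was high in knockdown tumour 3 at 0.207 CPM with 3 counts, and Klf14 had its only count, 0.0664 CPM, in knockdown tumour 9.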

How the results depend on the processing

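Asb4 and Peg10 passed the test under all 19 alternatives. With 1 library left out, the imprinted genes that rose numbered 2 to 5 and those that fell 0 to 5, all genes called 1290 to 4269, flanking genes called 12 to 44, regulators called 1 to 6, and the Ezh2 log2 fold change lay between -1.76 and -1.48. With a control left out only 1 control remained, and fewer genes were called. Ezh2 then missed the threshold, with log2 fold changes of -1.70 without control 1 and -1.48 without control 2. Dio3 entered the test without control 1 only through control 2, where it had 24 of its 30 control counts, and no fall is read from that fit. Depth limits the 7 genes below the filter, where 3 counts in a library are 0.162 to 0.273 CPM. Without knockdown tumour 4, 3 imprinted genes rose. DESeq2 called Sgce, Rasgrf1, Igf2 and Ndn as well (adjusted p 0.0098, 0.033, 0.037 and 0.032), and limma-voom called 2 imprinted genes as higher, losing Dlk1, Peg3 and Snrpn, and without knockdown tumours 7 and 9 the regulators called were 8.

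Replicate numbers did not pair the tumours: deviations of same-numbered tumours had r of -0.15 and 0.01. With them as a block, only numbers 1 and 2 occur in both groups, so that fit compares knockdown tumours 1 and 2 with the 2 controls. Knockdown tumours 3 to 9 add nothing to its fold changes. In that fit 3 imprinted genes rose, 0 fell, and 686 genes, 0 regulators and 9 flanking genes were called. Ezh2 had -1.55 (adjusted p = 0.057, edgeR), and in those tumours Gnas turned to -0.25 and Cdkn1c to -0.17.

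The direction turned in other uncalled genes, and the cause was not tested. Impact had -0.0043 with DESeq2's size factors in edgeR, -0.0033 in DESeq2 and -0.00081 without tumours 7 and 9. Ube3a had -0.028, -0.027 and -0.00066 in those 3 settings and -0.0041 without a filter. Gnas had -0.10 without tumours 7 and 9 and -0.094 in the libraries with Xist reads only, an alternative chosen after seeing the data. Plagl1 had 0.019 with the stricter filter, and Ascl2 0.12 with limma-voom. With 1 library left out, log2 fold changes spanned -0.51 to 0.76 for Plagl1, -0.19 to 0.23 for Ube3a, -0.22 to 0.35 for Gnas, -0.11 to 0.18 for Impact, -0.95 to 1.41 for Ascl2, -0.39 to 0.17 for Igf2r and -1.37 to 1.15 for Mest.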
